A study of Rattus norvegicus with 28 samples.

Results

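Narrow gaps between neighbouring lamina-associated domains (LADs) are the short stretches of rat chromosomes 1 to 20 that separate one LAD from the next by less than 200 kb. They were taken from the authors' list of LADs in control heart muscle cells, as the interval from the end of each LAD to the start of the next on the same chromosome. Of 1618 gaps between consecutive LADs, 737 (45.6%) were narrow and 881 were wider. The members were fixed by position alone, and no RNA value enters the rule. The rule itself was chosen with earlier results of these data known. Of 11383 genes in the authors' RNA table, 145 overlapped a narrow gap by at least 1 bp and are called gap genes here. Of these, 137 passed the filter on low values that 11033 genes of the table passed.

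The cells were cardiomyocytes isolated from hearts of adult rats aged 6 to 8 months and kept in culture for 48 hours. RNA was sequenced from 3 libraries of cells given an adenovirus encoding a short hairpin RNA against desmin (shDesmin) and from 3 libraries of cells given a null adenovirus (null). The null virus is not labelled as carrying a scrambled hairpin, so the RNA comparison holds the presence of a hairpin as well as its target. LADs come from a separate experiment, Lamin B chromatin immunoprecipitation (ChIP) with matched inputs in cells given a scrambled hairpin (control), in which 3 replicates were pooled before LADs were defined. Per the series' design text, LADs were not called for shDesmin cells, so the gaps describe control cells and their width after desmin loss was not analysed here.

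The nuclear lamina is a meshwork of lamin filaments under the inner nuclear membrane, and LADs are the long chromosome stretches that touch it. LADs are generally poor in genes, replicate late and hold weakly transcribed chromatin, while the ground between them holds most active genes. Desmin is the intermediate filament protein of muscle, which ties the sarcomeres at the Z-discs to each other, to the cell membrane and to the nuclear surface. A narrow gap is thus a short interval without a called LAD, with a called LAD on each side.

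The RNA libraries held 9168307 to 9817421 reads over the listed genes in shDesmin cells and 8724543 to 10908458 in null cells. Des, the gene targeted by the hairpin, had a read abundance of 9.10, 9.13 and 9.32 log2 CPM in shDesmin libraries, against 12.57, 12.55 and 12.60 in null libraries (log2 change -3.39, SE 0.10, limma adjusted p = 7.3e-09). CPM relates the read count of a gene to the scaled total of its library. All 8 cardiomyocyte markers were listed and were higher in shDesmin RNA with the authors' scaling and with library totals (5 of 8 with quantile normalization). Of all 11033 tested genes, 27.5% were higher with the authors' scaling, 7.27% with library totals and 28.2% with quantile normalization. The markers had a summed abundance of 49905 to 57882 CPM in shDesmin libraries and 15313 to 19046 CPM in null libraries. The authors' scale factors were 0.73 to 0.83 in shDesmin libraries and 1.17 to 1.42 in null libraries, and mitochondrial transcripts took 35.0% to 39.1% and 24.7% to 34.5% of the reads of those groups. Scaling by library totals in place of those factors put the median change of all tested genes at -0.75, against -0.041 with them. The part of that scaling, of the mitochondrial share and of the marker levels in the changes of single genes was not tested. In bulk RNA, fewer cells of a type and less RNA per cell cannot be told apart. The labels do not say whether the 3 libraries of a group are separate animals or cultures, so p-values measure the spread between libraries only.

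The promoters below belong to the 3 higher and 3 lower gap genes with the smallest adjusted p among those wholly inside 1 gap that have a gene symbol and an entry in the RefSeq promoter table. Each line gives the 250 bases before the annotated start on the gene's own strand, 5′ to 3′, from RefSeq on build GRCr8, which is not the rn6 build of the gap coordinates. Capitals mark each CG dinucleotide (CpG), the site of DNA methylation in mammals.
Eif4a2: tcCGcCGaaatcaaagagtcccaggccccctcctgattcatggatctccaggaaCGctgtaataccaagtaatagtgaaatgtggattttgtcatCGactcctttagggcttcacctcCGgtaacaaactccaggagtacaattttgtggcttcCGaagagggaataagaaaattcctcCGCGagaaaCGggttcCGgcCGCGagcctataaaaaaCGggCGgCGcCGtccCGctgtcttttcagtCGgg
Zfp91: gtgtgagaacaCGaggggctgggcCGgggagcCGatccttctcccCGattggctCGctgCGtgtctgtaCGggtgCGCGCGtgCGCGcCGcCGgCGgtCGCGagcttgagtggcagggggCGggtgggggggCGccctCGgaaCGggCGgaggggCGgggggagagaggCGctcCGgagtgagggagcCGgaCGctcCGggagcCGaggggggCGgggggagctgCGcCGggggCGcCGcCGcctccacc
Qdpr: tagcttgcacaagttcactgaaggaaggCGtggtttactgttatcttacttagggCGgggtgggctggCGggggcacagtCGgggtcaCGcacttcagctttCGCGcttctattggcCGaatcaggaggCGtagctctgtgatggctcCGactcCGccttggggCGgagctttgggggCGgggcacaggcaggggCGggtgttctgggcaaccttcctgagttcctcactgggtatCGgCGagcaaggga
Zscan26: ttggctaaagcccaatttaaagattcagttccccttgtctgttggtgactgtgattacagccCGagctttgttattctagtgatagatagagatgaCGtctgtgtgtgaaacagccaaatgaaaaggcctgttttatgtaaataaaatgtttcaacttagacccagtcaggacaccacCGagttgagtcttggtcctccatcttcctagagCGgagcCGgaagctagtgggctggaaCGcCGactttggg
Arl4a: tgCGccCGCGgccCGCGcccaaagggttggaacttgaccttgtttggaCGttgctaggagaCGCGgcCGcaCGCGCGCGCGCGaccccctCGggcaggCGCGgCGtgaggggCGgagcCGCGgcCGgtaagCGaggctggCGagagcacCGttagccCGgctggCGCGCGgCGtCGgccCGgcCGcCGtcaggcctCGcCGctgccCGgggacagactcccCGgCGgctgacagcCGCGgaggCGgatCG
Zfand5: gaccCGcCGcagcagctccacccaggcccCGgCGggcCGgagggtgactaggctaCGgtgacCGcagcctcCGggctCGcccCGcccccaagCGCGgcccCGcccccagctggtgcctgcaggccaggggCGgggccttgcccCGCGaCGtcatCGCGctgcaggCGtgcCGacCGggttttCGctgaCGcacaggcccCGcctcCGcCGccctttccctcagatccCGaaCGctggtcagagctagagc

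On GRCr8 these windows lie at chr11:91275324-91275573 (minus strand, Eif4a2), chr1:219352419-219352668 (minus, Zfp91) and chr14:69882526-69882775 (plus, Qdpr) for the higher genes. The lower genes' windows lie at chr17:47843572-47843821 (plus, Zscan26), chr6:62811298-62811547 (minus, Arl4a) and chr1:228192515-228192764 (plus, Zfand5). The windows of the higher genes held 18, 35 and 16 CpG, and those of the lower genes 7, 44 and 29. Zscan26 had the lowest G and C content of the 6, 46.0%, and Zfp91 the highest, 78.4%. The GC box GGGCGG, searched on both strands, was in the windows of Eif4a2, Zfp91, Qdpr, Arl4a and Zfand5. It is held by 30.5% of all 33469 promoters of the table, but by 59.4% of those of the 9142 listed genes with an entry. The TATA box TATAAA was in the Eif4a2 window, and in none of the other 5 windows, against 12.9% of all promoters and 6.43% of those of listed genes. A match is a string of letters and says nothing of binding, and the higher and lower genes shown do not separate by CpG count or by GC box. A comparison of promoter composition over all gap genes was void, because only 111 of the 145 (76.6%) had an entry in the table.

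Narrow gaps spanned 50.4 to 199.8 kb, with a median of 93.0 kb and quartiles of 66.0 and 136.2 kb. Wider gaps spanned 200.4 to 21808 kb, with a median of 699.6 kb. The lower bound belongs to the list itself, in which no LAD and no gap is shorter than about 50.4 kb and all starts are multiples of 600 bp. Shorter gaps were the more numerous: 410 were under 100 kb wide, 186 between 100 and 150 kb and 141 between 150 and 200 kb. At the minimum of 50.4 kb stood 9 gaps, among them chr1:37444200-37494600, chr1:171223200-171273600 and chr5:82573800-82624200. Just inside the 200 kb limit stood chr1:229514400-229713000 (198.6 kb), chr6:17170800-17370000 (199.2 kb) and chr19:36236400-36436200 (199.8 kb). Just outside it stood chr15:11819400-12019800 (200.4 kb), chr3:74716800-74918400 (201.6 kb) and chr7:16684200-16885800 (201.6 kb), so the limit cuts through a continuous range of widths.

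Narrow gaps were spread over all 20 chromosomes but unevenly. Chromosomes 1 and 2 held the most, 99 and 95. By share, narrow gaps made up 48 of 78 gaps (61.5%) on chromosome 14, the highest, and 6 of 39 (15.4%) on chromosome 10, the lowest. Chromosome 10 also held 1000 listed genes, none of them in a narrow gap, while chromosome 14 held 358 listed genes with 13 in narrow gaps. Chromosomes 1 and 2 had 22 gap genes each, chromosome 4 had 18, chromosome 5 had 15, and chromosome 19 had none.

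The LADs beside narrow gaps were somewhat longer by median than other LADs. The 1120 LADs that border a narrow gap (68.4% of 1638 on these chromosomes) had a median length of 321.9 kb, against 293.4 kb for the 518 LADs that border none. The 354 LADs with a narrow gap on both sides had a median of 373.2 kb. The shorter LAD beside a narrow gap had a median length of 175.2 kb and the longer 660.0 kb, against 165.0 and 600.0 kb beside wider gaps. No test was made of these differences, since neighbouring gaps share LADs.

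The LADs on the left and right of a narrow gap were seldom matched in length. Across 737 narrow gaps the correlation of log10 left and right lengths was 0.15, a description over gaps that share LADs. A LAD shorter than 100 kb stood on at least 1 side of 215 narrow gaps (29.2%), and LADs longer than 1 Mb stood on both sides of 40. In 197 cases (26.7%) the gap itself was wider than the shorter of its LADs.

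**Figure D1:**
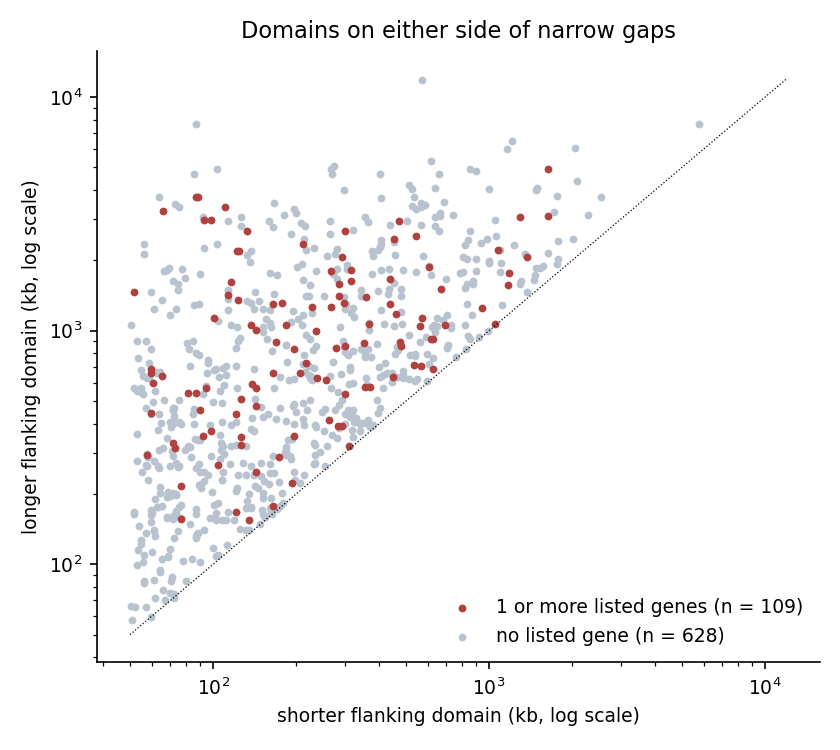
Length of the longer flanking LAD (y axis, kb, log scale) against the shorter (x axis, kb, log scale) for each of 737 narrow gaps, with the dotted line at equal lengths and the 109 gaps that overlap a listed gene in red. Points fill the range from about 50 kb on the x axis to over 1 Mb on both axes, and red points lie throughout it.

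Joining LADs across narrow gaps gave 383 chains of 2 or more LADs, and 172 chains of 3 or more, while 518 LADs stood alone. LADs made up a median of 88.3% of a chain's length. Most chains were short: 211 had 2 LADs, 94 had 3 and 37 had 4. The longest by number was chr7:3477601-9777599, with 14 LADs and 13 narrow gaps in 6.3 Mb and no listed gene in any gap. No listed gene lay in the 8 narrow gaps of chr7:41845201-50030999 or in the 8 of chr3:15634201-21473399 either.

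Chains with 10 LADs on chromosomes 4 and 2 did hold genes in their gaps. The chain at chr4:34822201-44383199 spanned 9.56 Mb, of which its 9 narrow gaps took 0.884 Mb (9.25%). Of the 14 listed genes in that chain, 8 overlapped those gaps: Ndufa4, Phf14, Tmem106b, Tmem168, Bmt2, LOC500035, Ppp1r3a and Foxp2. In shDesmin RNA 4 of the 8 were higher and none was lower, where 27.5% of all tested genes were higher and 31.4% lower. Ndufa4 and Phf14, both among the 4, share bases and are not fully separate measurements. The chain at chr2:150903001-157144199 had 7 gap genes, of which 6 were tested: 2 were higher (Gmps and Ssr3) and 4 were lower (Rap2b, Dhx36, RGD1565059 and Slc33a1). With so few genes in each chain, no difference between them was tested.

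**Figure D2:**
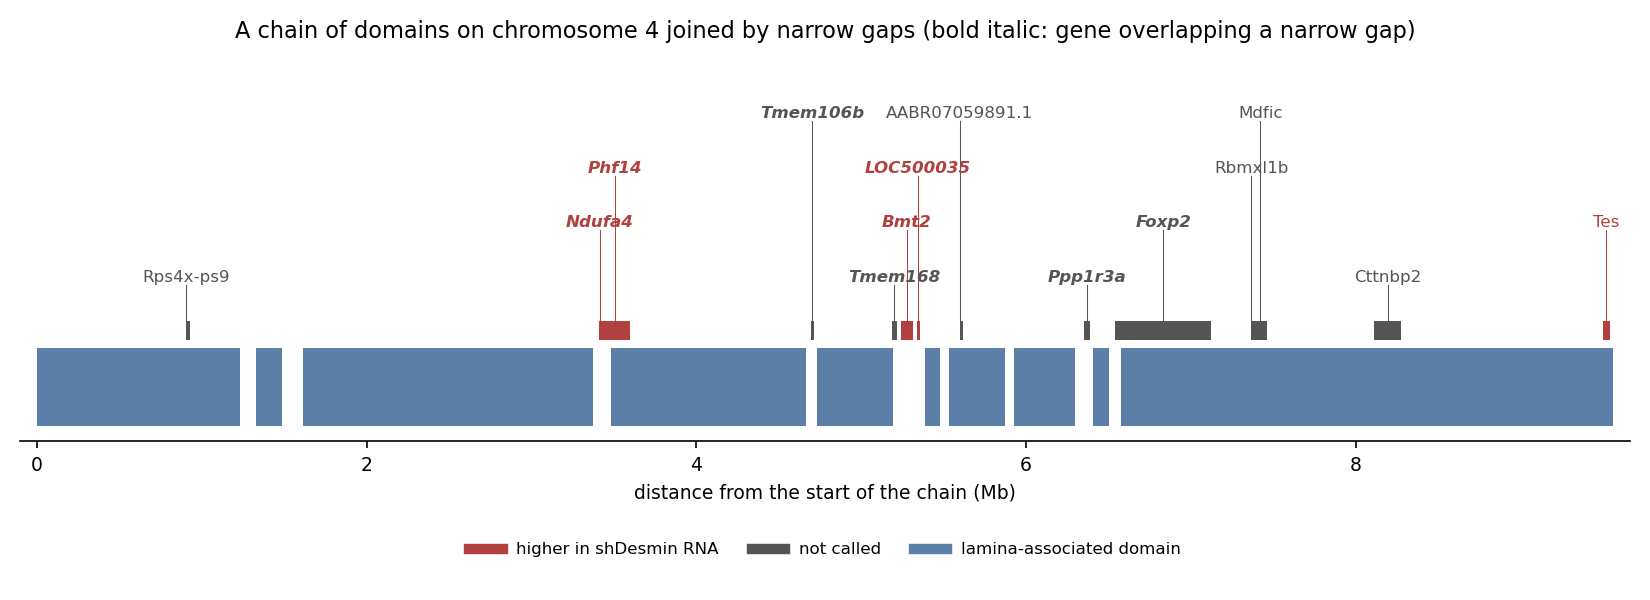
Map of the chromosome 4 chain, with distance from its start on the x axis (Mb), LADs as blue blocks and listed genes as bars above them. Names in bold italic are the 8 genes that overlap a narrow gap, and red marks the genes higher in shDesmin RNA, Ndufa4, Phf14, Bmt2 and LOC500035 in gaps and Tes near the chain's end.

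Most narrow gaps overlapped no listed gene. The 109 that did (14.8%) had a median width of 130.8 kb, and the 628 without had a median of 87.0 kb. The RNA table lists 11383 genes and not every annotated gene, so a gap without a listed gene may still hold annotated genes. The share of gaps with a gene was 2.54% at 50 to 60 kb, 9.04% at 60 to 80 kb, 9.52% at 80 to 100 kb, 17.7% at 100 to 150 kb and 32.6% at 150 to 200 kb. A wider interval has more room for a gene, but the number of genes per Mb also differed. It was 0.773, 1.49, 1.24, 1.84 and 2.81 in these classes, from narrowest to widest. The first value rests on 3 of 118 gaps. These densities count every overlapping gene, and are not comparable with the counts of gene midpoints given below. A single gene was found in 83 gaps, 2 genes in 17, 3 genes in 8 and 5 genes in 1.

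By gene midpoints, narrow gaps held 120 genes in 76.1 Mb, or 1.58 listed genes per Mb. LADs held 414 genes in 1101 Mb (0.376 per Mb) and wider gaps 10229 in 1411 Mb (7.25 per Mb), so narrow gaps lay between them. Distance to the nearest LAD border sets a limit on this contrast, since no base of a narrow gap is farther than 100 kb from a border. Within 25 kb of a border, narrow gaps held 0.678 genes per Mb and wider gaps 1.23. From 25 to 50 kb the values were 1.72 in narrow gaps and 2.88 in wider gaps, and from 50 to 100 kb they were 3.65 and 4.57. Gene density was lower in narrow gaps in each of these 3 distance classes, as a description without a test, and the difference was smaller than that over all distances. Gaps of 200 to 300 kb, just beyond the limit, held 3.31 genes per Mb, and gaps over 1 Mb held 7.87.

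**Figure D3:**
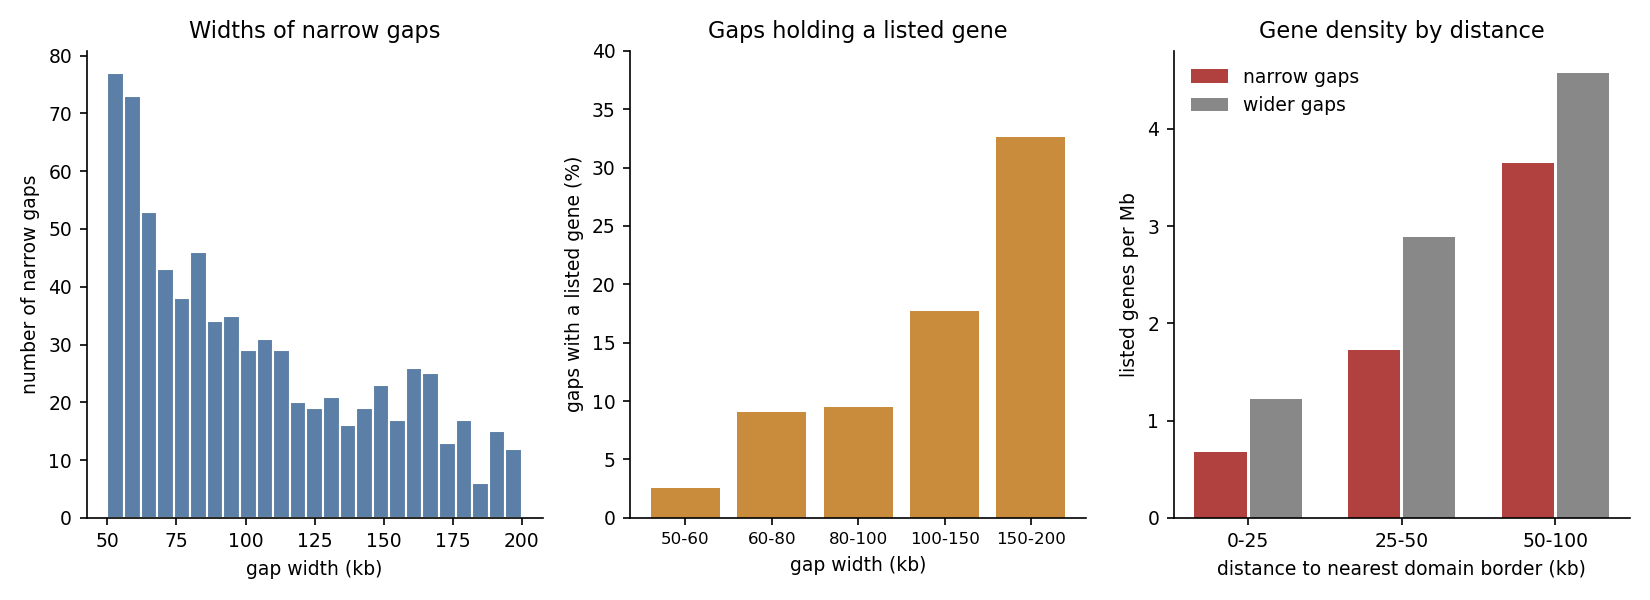
Left, the number of narrow gaps (y axis) by width (x axis, kb); middle, the percent of narrow gaps that overlap a listed gene by width class; right, listed genes per Mb by distance to the nearest LAD border (kb) in narrow gaps (red) and wider gaps (grey). Most gaps are short, the share with a gene reaches 32.6% in the 150 to 200 kb class, and red bars are below grey bars in all 3 distance classes.

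Of the 145 gap genes, 104 (71.7%) lay wholly inside 1 gap and 41 reached into a LAD. Of these 41, 4 crossed their gap and reached into the LADs on both sides (Tmem135, Ascc3, Pdgfd and Hs3st5). At least 50% of the gene lay in gaps for 118 of the 145. Protein-coding genes made up 139 of the 145. The 8 genes under the filter, among them Mctp2, Kcnab1, Gucy1b3, Hs3st5 and Cytip, are given no change.

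Read abundance of the gap genes lay between that of LAD genes and that of genes elsewhere. The median over 137 tested gap genes was 3.15 log2 CPM in shDesmin RNA and 3.29 in null RNA. Genes with at least 50% of their length in a LAD (392 tested) had medians of 2.35 in shDesmin and 2.37 in null RNA, and genes touching neither a LAD nor a narrow gap (10120 tested) had 3.82 and 4.03. Per library the gap gene median was 3.18, 3.12 and 3.05 in shDesmin libraries, against 3.31, 3.33 and 3.29 in null libraries. These values are not divided by transcript length, so they describe reads per gene and not molecules. The 102 tested genes wholly inside a gap had a null median of 3.60 log2 CPM, and the 35 that reached into a LAD had 2.73. Genes of gaps below 100 kb had 2.65 (30 genes), those of gaps from 100 to 150 kb had 3.86 (42 genes) and those of gaps from 150 to 200 kb had 3.48 (65 genes). Gap genes were not all weak: 13 of 137 (9.49%) were in the top 10% of tested genes by null abundance.

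With desmin knocked down, gap genes moved in both directions in near-equal numbers. Of 137 tested, 36 were higher in shDesmin RNA (26.3%) and 35 were lower (25.5%) at a limma adjusted p under 0.05, and 66 were not called. Among all 11033 tested genes, 27.5% were higher and 31.4% lower, or 58.9% in either direction. These shares are near that background, so the counts are no result about narrow gaps. The groups of libraries did not overlap in 87 gap genes (63.5%), against 64.9% of all tested genes. Called changes of at least 2-fold numbered 8 of 137 higher, a smaller share than the 10.6% of all tested genes, without a test. Those lower numbered 21 of 137, near the 14.3% of all tested genes. The median log2 change was 0.095 in gap genes and -0.041 in all tested genes, with gap gene quartiles of -0.60 and 0.55. In LAD genes, some of which are also gap genes, the median was 0.098, with 28.1% higher and 18.1% lower. In genes touching neither it was -0.059, with 27.1% higher and 32.4% lower.

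The direction of these counts depends on how libraries are scaled. With library totals 6 gap genes were higher and 78 lower (all tested genes, 7.27% higher and 62.5% lower). With each library centred on its median 55 were higher and 30 lower (all tested genes, 36.0% and 24.5%), and with quantile normalization 43 and 31 (28.2% and 28.9%). The median of gap genes minus that of all tested genes was 0.14 with the authors' scaling and 0.13 with quantile normalization. Median centring and library totals shift all genes of a library alike, so with them this difference stays at 0.14 by construction.

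**Figure D4:**
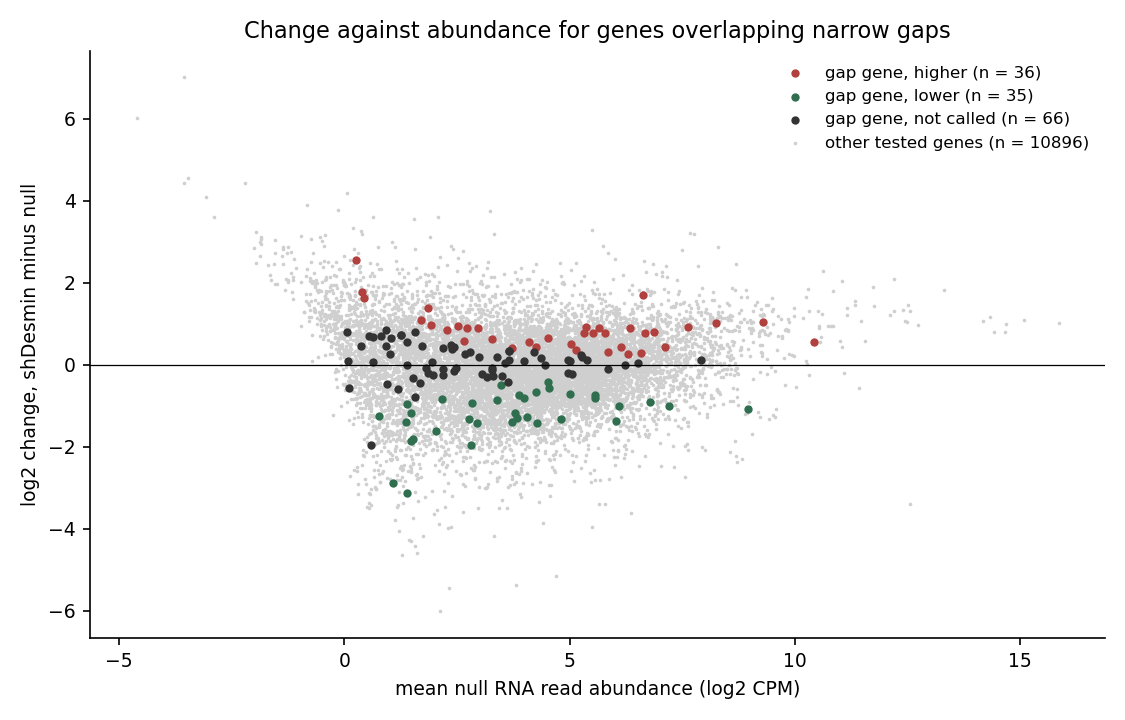
Log2 change of shDesmin minus null RNA (y axis) against mean null read abundance (x axis, log2 CPM) with the authors' scaling; coloured points are the 137 tested gap genes and grey points the other tested genes. The 36 higher and 35 lower gap genes lie inside the cloud of other genes, between changes of -3.13 and 2.56.

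The genes described next are the 12 largest called rises and the 12 largest called falls with a mean of at least 1 log2 CPM and no overlap between groups, and the 8 most abundant gap genes. Their known roles are background, and no group of genes by role was tested. A gene lay wholly inside its gap unless a share is given, values are log2 CPM per library, and coordinates are on rn6.

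Bckdhb, Ndufa4 and Phf14 were higher in shDesmin RNA. Bckdhb (chr8:91464229-91656134, 81.2% in a 169.2 kb gap) encodes a subunit of the branched-chain ketoacid dehydrogenase, which commits leucine, isoleucine and valine to breakdown in mitochondria. It had 8.28, 8.43 and 8.34 in shDesmin libraries, against 6.54, 6.58 and 6.80 in null libraries. This was a log2 change of 1.71 (SE 0.10, limma adjusted p = 1.8e-07), the smallest p among the gap genes, and the groups stood far apart. Ndufa4 (chr4:38233680-38240848, 108.6 kb gap), whose protein is a subunit of cytochrome c oxidase, had 10.25, 10.51 and 10.21 in shDesmin libraries, against 8.99, 9.35 and 9.52 in null libraries. Its log2 change was 1.03 (SE 0.14, limma adjusted p = 7.4e-05), and under quantile normalization it was 0.096 with an adjusted p of 0.47. Phf14 (chr4:38240728-38420205, 35.6% in the same gap) encodes a PHD finger protein that binds histones. It had 9.26, 9.41 and 9.15 in shDesmin libraries, against 8.02, 8.29 and 8.45 in null libraries (log2 change 1.02, SE 0.12, limma adjusted p = 2.8e-05). Ndufa4 and Phf14 share 121 bp, and the use of strand in counting is not stated, so reads of the pair may be mixed. Ndufa4 had 9735, 9767 and 9119 reads in shDesmin libraries, against 6634, 7236 and 9356 in null libraries. Phf14 had 4927, 4552 and 4377 reads, against 3375, 3458 and 4461. Phf14 reads thus followed those of Ndufa4 closely, and its rise cannot be taken as separate. How many of the reads belong to Phf14 was not tested.

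Xirp2 (chr3:53563194-53658132, 94.2% in a 121.2 kb gap) was the most abundant gap gene. It encodes a Xin repeat protein that binds actin filaments at the intercalated discs of heart muscle. Its values were 11.07, 10.95 and 10.90 in shDesmin libraries and 10.57, 10.33 and 10.37 in null libraries, with every shDesmin value above every null value. The log2 change was 0.55 (SE 0.11, limma adjusted p = 0.001) with the authors' scaling, and its sign turned to -0.27 with quantile normalization and -0.16 with library totals. Cst3 (chr3:143219686-143223615, 102.6 kb gap), which encodes the secreted protease inhibitor cystatin C, had 7.99, 8.12 and 8.01 in shDesmin libraries, against 7.79, 7.98 and 8.02 in null libraries. The groups overlapped and the change of 0.11 (SE 0.09) was not called (limma adjusted p = 0.33). It was -0.35 with quantile normalization and -0.60 with library totals, both called.

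Eif4a2, Emc2, Ybx3 and Dtwd2 rose with the authors' scaling. Eif4a2 (chr11:81373048-81379871, 172.8 kb gap) encodes an RNA helicase of the translation initiation complex. It had 8.59, 8.61 and 8.47 in shDesmin libraries, against 7.63, 7.61 and 7.66 in null libraries, with little spread within groups (log2 change 0.92, SE 0.08, limma adjusted p = 4.9e-06). Emc2 (chr7:82338663-82377109, 113.4 kb gap), a subunit of the complex that inserts membrane proteins into the endoplasmic reticulum, had 6.30, 6.45 and 6.10 in shDesmin libraries, against 5.47, 5.22 and 5.40 in null libraries (log2 change 0.92, SE 0.12, limma adjusted p = 5e-05). Ybx3 (chr4:165606819-165630118, 109.2 kb gap) encodes a cold shock domain protein that binds messenger RNA. It had 7.52, 7.58 and 7.56 in shDesmin libraries, against 6.95, 7.11 and 7.28 in null libraries, a log2 change of 0.44 (SE 0.10, limma adjusted p = 0.0028) that turned to -0.27 with library totals. Dtwd2 (chr18:43857970-43945273, 165.0 kb gap), an enzyme that modifies transfer RNA, had 1.88, 2.40 and 1.89 in shDesmin libraries, against 1.13, 0.74 and -0.58 in null libraries. Null libraries differed by more than 1 log2 unit here, and the change was 1.63 (SE 0.42, limma adjusted p = 0.0059).

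Other rises were in genes of low read abundance. Mipol1 (chr6:78172790-78499599) had only 5.08% of its length in its 102.0 kb gap and 94.9% in the neighbouring LAD. It encodes a coiled-coil protein and had 2.37, 2.04 and 2.08 in shDesmin libraries, against 0.51, -0.08 and 0.76 in null libraries (log2 change 1.77, SE 0.31, limma adjusted p = 0.00049). It shares 8135 bp with LOC314140, so some reads may belong to that gene. Sumo4 (chr5:14983371-14984364, 94.2 kb gap) belongs to the family of small ubiquitin-like modifiers, whose near-identical copies can share reads. Its values were 3.36, 3.22 and 3.11 in shDesmin libraries and 1.95, 2.10 and 1.52 in null libraries (log2 change 1.37, SE 0.21, limma adjusted p = 0.00023).

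Bmt2 (chr4:40063932-40136061, 193.8 kb gap) encodes a protein that senses S-adenosylmethionine upstream of the growth kinase mTORC1. It had 3.01, 2.66 and 2.72 in shDesmin libraries, against 2.26, 1.09 and 1.74 in null libraries (log2 change 1.10, SE 0.29, limma adjusted p = 0.0067). Tmem64 (chr5:28850950-28867227, 195.6 kb gap), a transmembrane protein gene, had 3.10, 2.85 and 2.77 in shDesmin libraries, against 2.42, 1.60 and 1.77 in null libraries (log2 change 0.98, SE 0.25, limma adjusted p = 0.0051). Ggh (chr5:34040258-34063361, 69.6 kb gap) encodes gamma-glutamyl hydrolase, a lysosomal enzyme of folate turnover. Its values were 3.29, 3.77 and 3.33 in shDesmin libraries and 2.33, 2.40 and 2.85 in null libraries (log2 change 0.94, SE 0.21, limma adjusted p = 0.0024). Phf20l1 (chr7:108613739-108756740, 39.1% in a 108.0 kb gap) encodes a Tudor domain reader of methylated lysine. It had 3.69, 3.57 and 3.64 in shDesmin libraries, against 3.16, 2.45 and 2.59 in null libraries (log2 change 0.90, SE 0.20, limma adjusted p = 0.0026). In all these genes the lowest shDesmin library was above the highest null library, as the choice of genes required. With library totals 7 of the 12 largest rises were no longer called, Eif4a2, Emc2, Bmt2, Ggh, Tmem64, Phf20l1 and Dtwd2, with changes of 0.19 to 0.92 and adjusted p of 0.088 to 0.53.

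Zwint, Aspm, Orc5 and Smarcad1 were among the 12 largest falls. Zwint (chr20:17075771-17091766, 163.2 kb gap) encodes a kinetochore protein and was the third most abundant gap gene in null RNA. It had 8.28, 7.75 and 7.61 in shDesmin libraries, against 9.05, 8.88 and 8.95 in null libraries (log2 change -1.08, SE 0.15, limma adjusted p = 8.8e-05). Aspm (chr13:56546021-56591793, 55.9% in a 67.8 kb gap), which encodes a spindle pole protein, had 1.21, 1.38 and 1.73 in shDesmin libraries, against 2.84, 2.73 and 2.75 in null libraries (log2 change -1.33, SE 0.23, limma adjusted p = 0.00041). Orc5 (chr4:9160067-9223997, 77.2% in an 84.6 kb gap) encodes a subunit of the origin recognition complex. Its values were 2.71, 2.70 and 2.43 in shDesmin libraries and 3.78, 3.90 and 3.68 in null libraries (log2 change -1.17, SE 0.17, limma adjusted p = 0.00011). Smarcad1 (chr4:95884743-95945248, 147.6 kb gap), a chromatin remodelling ATPase, had 2.66, 1.93 and 2.43 in shDesmin libraries, against 3.69, 3.89 and 3.61 in null libraries (log2 change -1.39, SE 0.21, limma adjusted p = 0.00018). No shDesmin library reached the lowest null library in any of these genes, as the choice of genes required.

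Spry2, Arl4a, Slc33a1, Zfand5 and Maged2 also fell. Spry2 (chr15:90172975-90175802, 198.0 kb gap) encodes an inhibitor of receptor tyrosine kinase signalling and had 2.79, 2.09 and 2.77 in shDesmin libraries, against 3.99, 3.80 and 3.73 in null libraries (log2 change -1.29, SE 0.21, limma adjusted p = 0.00031). Arl4a (chr6:59948577-59950586, 157.2 kb gap), a small GTPase gene of the ARF-like family, had 3.59, 3.49 and 3.37 in shDesmin libraries, against 4.59, 4.94 and 4.92 in null libraries (log2 change -1.33, SE 0.14, limma adjusted p = 1.6e-05). Slc33a1 (chr2:154520087-154542919, 142.2 kb gap) encodes the carrier that brings acetyl-CoA into the endoplasmic reticulum. Its values were 2.99, 3.00 and 2.57 in shDesmin libraries and 4.46, 4.23 and 4.14 in null libraries (log2 change -1.43, SE 0.17, limma adjusted p = 3.5e-05). Zfand5 (chr1:238843338-238852566, 182.4 kb gap) encodes a zinc finger protein that activates the proteasome. It had 6.48, 6.09 and 6.08 in shDesmin libraries, against 7.23, 7.22 and 7.20 in null libraries (log2 change -1.003, SE 0.11, limma adjusted p = 2.4e-05). Maged2 (chr5:33174542-33182715, 106.2 kb gap), a gene of the melanoma antigen family, had 2.71, 2.88 and 2.72 in shDesmin libraries, against 4.05 in each null library (log2 change -1.28, SE 0.15, limma adjusted p = 2.6e-05). The groups did not overlap in any of the 5 genes, which the choice of genes required of all but Zfand5, named for its abundance.

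**Figure D5:**
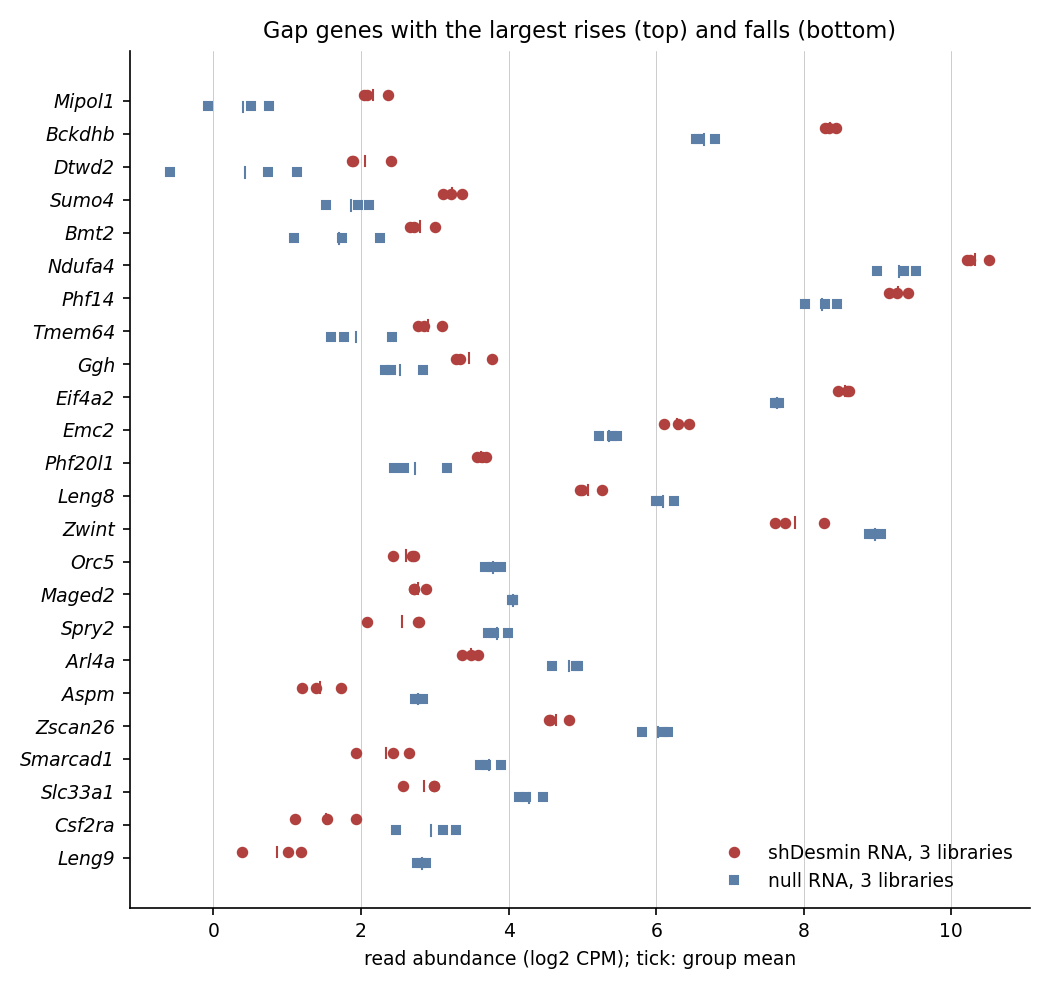
Read abundance (x axis, log2 CPM) in each of 3 shDesmin libraries (red circles) and 3 null libraries (blue squares), with ticks at group means, for the 12 largest called rises and 12 largest called falls among gap genes with a mean of at least 1 log2 CPM. Circles are right of all squares in the upper 12 rows and left of all squares in the lower 12, as the choice of genes required.

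The largest changes of all gap genes were in genes outside that choice, singled out after their values were seen. LOC500035 (chr4:40161285-40169564), a gene with a locus name only, had 52, 58 and 48 reads in shDesmin libraries, against 16, 15 and 12 reads in null libraries. Its log2 change of 2.56 (SE 0.27, limma adjusted p = 1.4e-05) was the highest of the 137. Fam154a (chr5:104771392-104920906, 6.83% in its gap) had 3, 0 and 6 reads in shDesmin libraries, against 31, 24 and 43 in null libraries, and a fitted log2 change of -3.13 (SE 0.75, limma adjusted p = 0.004), the lowest. With so few reads in shDesmin libraries, that fitted value depends on the 0.5 reads added before the log.

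Genes that share a gap were compared next. Of 24 gaps with at least 2 tested genes, 2 had all of them called in 1 direction and 2 held genes called in opposite directions. These counts describe the gaps and were not set against what the shares of called genes alone would give. The concordant gaps were the one with Ndufa4 and Phf14 and chr14:62526600-62657400, with Gnpda2, Guf1 and Yipf7. Guf1, whose protein is a mitochondrial translation factor, had a log2 change of 0.77 (SE 0.10, limma adjusted p = 7.3e-05), and it shares 752 bp with Gnpda2, which changed by 0.57 (SE 0.20, limma adjusted p = 0.026). Yipf7 changed by 0.65 (SE 0.13, limma adjusted p = 0.0013). Shared bases at Ndufa4 and Phf14 and at Guf1 and Gnpda2 mean that these pairs are not fully separate measurements. The gap chr1:228327000-228501600 held Patl1, a factor of messenger RNA decapping, with a change of 0.36 (SE 0.13, limma adjusted p = 0.036), and Osbp, the oxysterol-binding protein, with -0.92 (SE 0.13, limma adjusted p = 9.6e-05). In chr2:154471800-154614000, Slc33a1 and RGD1565059 were lower while Gmps, which encodes the enzyme that makes GMP, was higher by 0.42 (SE 0.11, limma adjusted p = 0.0049).

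The gap with the most tested genes was chr17:45157800-45319800, 162.0 kb wide between LADs of 249.0 and 142.8 kb. It held the zinc finger genes Zscan26, Zscan12 and Zkscan3, the miRNA gene Mir1896 and a pseudogene. Zscan26 (chr17:45188248-45207065), a presumed transcription factor by its zinc fingers and SCAN domain, had 4.81, 4.55 and 4.55 in shDesmin libraries, against 5.81, 6.09 and 6.16 in null libraries (log2 change -1.38, SE 0.13, limma adjusted p = 4.9e-06). Zscan12 had 2.66, 2.85 and 2.08 in shDesmin libraries, against 3.40, 3.49 and 3.29 in null libraries (log2 change -0.86, SE 0.22, limma adjusted p = 0.0049). Zkscan3, a repressor of autophagy genes, stood between those genes without a call, with 4.67, 4.39 and 4.49 in shDesmin libraries, against 4.55, 4.24 and 4.28 in null libraries (log2 change 0.16, SE 0.14, limma adjusted p = 0.33). Its value was -0.55 with library totals. Mir1896 lies wholly within Zscan26, over 81 bp, and its change of -1.39 (SE 0.37, limma adjusted p = 0.0077) cannot be told apart from that of its host. The pseudogene was not called (-0.21, SE 0.28, limma adjusted p = 0.54).

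Next came 8 gaps tied at 3 tested genes, of which the first 2 in chromosome order are described. The first is chr1:73668600-73822200, 153.6 kb wide between LADs of 658.8 and 59.4 kb. Leng8 (chr1:73722088-73733788) and Leng9 (chr1:73721114-73722631), named for their place in the leukocyte receptor cluster, share 544 bp there. Leng9 had 0.39, 1.01 and 1.19 in shDesmin libraries, against 2.76, 2.88 and 2.81 in null libraries (log2 change -1.96, SE 0.27, limma adjusted p = 8.4e-05). Leng8 had 4.99, 4.97 and 5.27 in shDesmin libraries, against 6.04, 6.25 and 6.00 in null libraries (log2 change -1.01, SE 0.12, limma adjusted p = 2.9e-05). Both fell, with the limit that reads over the shared bases may count for either. Cdc42ep5, which encodes an effector of the GTPase Cdc42, had 0.52, 1.11 and 0.15 in shDesmin libraries, against 0.97, 1.26 and 1.35 in null libraries, and was not called (-0.60, SE 0.35, limma adjusted p = 0.15).

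The other, chr1:229514400-229713000, is also one of the widest below the limit, at 198.6 kb, between LADs of 115.8 and 1616 kb. Zfp91 (chr1:229602499-229639187) encodes a zinc finger ubiquitin ligase. It had 7.74, 7.63 and 7.66 in shDesmin libraries, against 6.98, 6.76 and 6.87 in null libraries (log2 change 0.81, SE 0.09, limma adjusted p = 2.3e-05), and with library totals the change was 0.096, without a call (adjusted p 0.53). Its neighbours did not pass. Cntf, the ciliary neurotrophic factor gene, had 1.88, 1.81 and 1.48 in shDesmin libraries, against 1.84, 1.94 and 2.15 in null libraries (log2 change -0.25, SE 0.24, limma adjusted p = 0.38). Lpxn, which encodes the focal adhesion protein leupaxin, had 2.11, 1.11 and 0.58 in shDesmin libraries, against 0.51, 1.02 and 1.48 in null libraries (log2 change 0.26, SE 0.42, limma adjusted p = 0.60). Its sign rests on shDesmin replicate 1, without which the change was -0.16. The other gaps just inside the limit, on chromosomes 6 and 19, held no listed gene.

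The narrowest gap with a tested gene, chr14:1426800-1479600, is 52.8 kb wide between LADs of 446.4 and 59.4 kb and held 3 genes. Csf2ra (chr14:1462358-1467264) encodes the alpha chain of the receptor for the myeloid growth factor GM-CSF. It had 1.93, 1.54 and 1.10 in shDesmin libraries, against 2.48, 3.28 and 3.10 in null libraries (log2 change -1.43, SE 0.28, limma adjusted p = 0.0012). Of the 5 macrophage and leukocyte markers 2 were tested. Csf1r, the receptor of another myeloid growth factor, was lower (log2 change -3.17, SE 0.20, limma adjusted p = 4e-07), and Cd68 was not called (0.19, SE 0.39, limma adjusted p = 0.69). The pair had a summed abundance of 2.87 to 3.77 CPM in shDesmin libraries and 16.1 to 17.1 CPM in null libraries. Ptprc, C1qa and Cd14 were not analysed here, and the part of such cells in the result was not tested. Ppp2r3b, a regulatory subunit of protein phosphatase 2A, had 3.18, 3.15 and 3.24 in shDesmin libraries, against 3.79, 4.09 and 4.09 in null libraries (log2 change -0.80, SE 0.15, limma adjusted p = 0.00083). Crlf2, a cytokine receptor gene, had 2.02, 2.04 and 2.21 in shDesmin libraries, against 2.14, 2.35 and 2.10 in null libraries, and was not called (-0.11, SE 0.21, limma adjusted p = 0.67). The sign of that difference was positive with median centring (0.071) and quantile normalization (0.088).

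The next narrowest gaps with a tested gene were both 63.6 kb wide. Sec61g (chr14:99774589-99780964), a subunit of the protein translocation channel of the endoplasmic reticulum, had 1.78, 2.28 and 1.89 in shDesmin libraries, against 0.58, 1.64 and 1.56 in null libraries. Its groups did not overlap but the change of 0.72 (SE 0.32) was not called (limma adjusted p = 0.074), and it was called with median centring (0.90, adjusted p 0.03) and quantile normalization (0.88, adjusted p 0.043). Gpm6a (chr16:39367692-39719187), which encodes a neuronal membrane glycoprotein, had 7.28% of its length in its gap and 92.7% in a LAD. Its values were -0.10, 0.50 and 0.15 in shDesmin libraries and 0.15, -0.08 and 0.19 in null libraries (log2 change 0.095, SE 0.39, limma adjusted p = 0.85). The sign was negative without shDesmin replicate 2 (-0.064) and with library totals (-0.62).

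Long genes that cross a whole gap into the LADs on both sides had fitted log2 changes between -0.42 and 0.45. Tmem135 (chr1:152886996-153096269), a membrane protein gene linked to mitochondrial dynamics, spanned 209.3 kb across a 165.0 kb gap. It had 3.90, 3.79 and 3.62 in shDesmin libraries, against 4.01, 3.33 and 3.63 in null libraries (log2 change 0.11, SE 0.18, limma adjusted p = 0.62). The value was -0.050 without null replicate 2 and -0.60 with library totals, where it was called. Ascc3 (chr20:55253686-55556473), a helicase gene of a DNA repair and ribosome rescue complex, spanned 302.8 kb across a 94.2 kb gap and had 4.12, 4.03 and 4.18 in shDesmin libraries, against 4.89, 4.42 and 4.29 in null libraries. It was lower (log2 change -0.42, SE 0.16, limma adjusted p = 0.04), and the call was lost without any 1 of null replicates 1 and 2 and shDesmin replicates 1, 2 and 3 (changes of -0.48 to -0.24, adjusted p of 0.055 to 0.12). Pdgfd (chr8:4440876-4669014), the gene of a platelet-derived growth factor, spanned 228.1 kb across a 76.2 kb gap. It also reached into the narrow gap chr8:4375800-4447200 and held the whole 87.0 kb LAD between these gaps. Pdgfd had 0.86, 1.01 and 0.58 in shDesmin libraries, against 0.34, 0.29 and 0.46 in null libraries. It was not called (log2 change 0.45, SE 0.33, limma adjusted p = 0.26), and its value was -0.26 with library totals.

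Listed genes of the lamina and of chromatin tethering lay outside narrow gaps, as did most listed genes. Of a list of 28 such genes, among them the lamin genes Lmna, Lmnb1 and Lmnb2 and the lamin B receptor gene Lbr, 26 were tested, and 5 were higher and 7 lower in shDesmin RNA (1 and 18 with library totals). With the authors' scaling these shares are not above those of all tested genes, 27.5% higher and 31.4% lower. With library totals 7.27% of all tested genes were higher and 62.5% lower, and the list's share of lower genes lay above that, without a test. With the authors' scaling the 26 genes had a median log2 change of -0.12, against -0.041 for all tested genes. None of the 26, and none of the cell type markers that could be placed from the RNA table, overlapped a narrow gap. Only 145 of all 11383 listed genes did, so this absence is no result about these lists. Among those markers, 4 of 5 tested mural, 3 of 3 fibroblast and 2 of 4 endothelial markers were higher in shDesmin RNA, against 1, 1 and 0 with library totals. The endothelial marker Kdr was lower, and no adipocyte marker was tested.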

How the data were processed

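RNA was measured in 3 shDesmin and 3 null libraries. The deposited expression table gives log2 values, scaled by the authors for each library, per the file headers and the values themselves. BWA, bedtools, deepTools, edgeR, featureCounts, limma, Picard, SAMtools, STAR 2.6.0c and Trimmomatic 0.32, with builds rn6 and hg19, are named without roles in the submitters' processing notes. Back-transformed, 100% of the values were whole reads plus 0.5 in units of a step set by the library, within 0.001. Subtracting a constant of 5.70 gives log2 CPM. In these units 3 reads, the limit a count of 0 allows, equal 0.374 to 0.447 CPM in shDesmin and 0.230 to 0.271 CPM in null libraries, for counting error only. Replicates differed beyond sampling noise (5.14 to 38.2 as chi-square over its degrees of freedom), and each counted as a sample.

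A second deposited table, with the authors' own fold score, t score and p-values (raw and adjusted) per the file headers, served only as an alternative. The deposited LAD list gives starts and ends without scores. Gene positions carry no strand. ChIP signal was not used here.

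The fit was lmFit and eBayes (trend on) in limma 3.58.1 under R 4.3.3. It had a term for group alone and covered the 11033 genes with values over 0 log2 CPM in 3 or more of the 6 libraries. Calls used a two-sided p with Benjamini-Hochberg adjustment over all these genes and a threshold of 0.05. Scripts (Python 3.11.15) were tested on simulated data. Alternatives were other filters, an added 2 reads, other scalings, no trend, other overlap rules and gap widths, short LADs dropped, each library left out and a replicate block.

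Named genes were the 12 largest called rises and falls (mean of at least 1 log2 CPM, groups not overlapping, symbol not an ID), the 8 most abundant in null RNA, those crossing into both LADs, and those of the 3 gaps with the most tested genes (ties in chromosome order), the 3 narrowest with one and the 3 just inside the limit. The members, gene lists and rules were chosen with earlier results of these data known.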

Additional observations from a re-analysis of the deposited data

How the results depend on the processing

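The counts of called gap genes stayed within 1.5 times of those reported under the filters, the pseudocount, the variance model and the authors' deposited table, while scaling and gap width moved them further. With library totals 802 of all tested genes were higher and 6892 lower, and 6 gap genes were higher and 78 lower. With median centring 55 gap genes were higher. The number of gap genes itself changes with the gap width. With gaps below 100 kb there were 410 gaps and 35 genes, 30 of them tested and 11 called (5 higher, 16.7%, and 6 lower, 20%). With gaps below 300 kb there were 280 genes, 263 of them tested and 151 called (87 higher, 33.1%, and 64 lower, 24.3%). Among all tested genes 27.5% were higher and 31.4% lower. The median log2 change of gap genes was 0.28 with median centring and -0.62 with library totals. Their median null abundance was 3.05 log2 CPM without a filter, 3.99 with the stricter filter, 3.20 with median centring, 3.17 with quantile normalization and 3.64 with library totals. It was 3.65 for genes at least 50% in gaps, 3.60 for genes wholly inside, 2.65 for gaps below 100 kb and 3.46 for gaps below 300 kb. Leaving out 1 library at a time gave 5657 to 6611 called genes in all, 62 to 70 called gap genes (31 to 39 higher, 31 to 34 lower) and median changes of 0.064 to 0.16.

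Signs turned in the following named genes. With library totals these were Cst3 (-0.60), Ybx3 (-0.27), Gpm6a (-0.62), Lpxn (-0.45), Tmem135 (-0.60), Pdgfd (-0.26), Xirp2 (-0.16) and Zkscan3 (-0.55). With quantile normalization these were Cst3 (-0.35), Xirp2 (-0.27) and Crlf2 (0.088), and with median centring Crlf2 (0.071). Leaving out 1 library at a time gave -0.064 to 0.23 for Gpm6a, -0.16 to 0.61 for Lpxn, -0.050 to 0.29 for Tmem135 and -0.38 to 0.012 for the pseudogene beside Zscan26. The call of Ascc3 was also lost with median centring, quantile normalization, no trend and the authors' deposited table. Library totals and median centring shift all genes of a library alike. The cause of the other turns was not tested.

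Same-numbered shDesmin and null libraries did not deviate together (correlations of 0.13, -0.072 and -0.17), so the numbers do not pair them. With the replicate block 6583 genes were called (3092 higher, 3491 lower), of which 72 were gap genes (38 higher, 34 lower). Depth limits genes with few reads, and the list of LADs has no replicates, so the gap borders carry no error.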

Other observations

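The X chromosome, outside the 20 chromosomes described, had 89 narrow gaps among 156 gaps between consecutive LADs (57.1%), with a median width of 110.4 kb. Of these, 27 overlapped a listed gene, with 35 genes in all, each of them tested.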
